A study of Macaca fascicularis with 20 samples.

Results

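The microRNAs miR-137 and miR-138 were followed across 7 laser-cut regions of the fetal visual cortex of the crab-eating macaque. They were picked by name, as the rows mir-137 and mir-138 of both tables, and make up 2 of 828 miRNA names and 4 of 1656 arms. All 4 arms passed the filter on low counts. Each miRNA hairpin yields a 5p and a 3p arm. By the counts here the 3p arm was the major one for miR-137 and the 5p arm for miR-138.

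A mature miRNA guides the Argonaute complex to matching sites in messenger RNAs, whose translation or stability it lowers. Work in mouse assigns miR-137 to the control of neural progenitor division, through the chromatin modifier Ezh2, and to the restraint of dendrite growth, through the ubiquitin ligase Mib1. Work in rat hippocampal neurons places miR-138 at synapses, where it limits the size of dendritic spines through the depalmitoylating enzyme Lypla1 (APT1). In mammals miR-138 is encoded at more than one locus. The tables give it under a single name, so the contribution of each locus is not separated.

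The cuts took in 2 germinal layers, namely the ventricular zone (VZ) of dividing radial glia and the outer subventricular zone (OSVZ), which is thick in primates, together with the cortical plate (CP) of young, post-mitotic neurons. VZ_17, VZ_18, OSVZ_18, CP_17 and CP_18 carry the number of their visual area, while for area 17 the apical (OSVZ_17int) and basal (OSVZ_17ext) parts of the OSVZ were cut separately. Each region had 1 library from embryonic day 80 (replicate set 1) and 1 from day 79 (set 2), 14 libraries in all, and no treatment or genotype is labelled. The labels do not say whether 1 animal gave all regions of a set, and p-values therefore reflect library-to-library spread, part of which may be technical. Library totals ran from 3603478 to 9517217 counts. In these pieces of tissue, fewer cells of a type and less miRNA per cell cannot be told apart.

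The labels of the zones were checked on 2 arms. The radial glia miRNA miR-92b-3p had 25498 to 52143 CPM (counts scaled by TMM to a common library size) in the 4 VZ libraries, 13464 to 25289 CPM in the 6 of OSVZ and 518 to 1082 CPM in the 4 of CP. The neuronal miR-124-3p was close to absent, in CP too, with 0 to 19 counts per library and at most 2.99 CPM. It could not serve as a check of CP, and the cause of its low counts was not tested. Whether reads of miRNAs with more than 1 locus, as miR-138 has, were dropped before counting is not stated. OSVZ_17int replicate 2 stood apart from its zone, with 8 counts of miR-137-3p. VZ_18 replicate 1 held 1473 counts of miR-138-3p, the highest level in its zone but not past Dixon's criterion for an outlying library (gap 0.586 of the range, critical value 0.829). The main results are also given without both.

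miR-137-3p was abundant in the cortical plate and scarce in both germinal zones. In CP it stood at 509.5 and 438 CPM in area 17 (replicates 1 and 2) and at 1343 and 962 CPM in area 18. In VZ it stood at 21.1 and 12.5 CPM in area 17 and at 38.6 and 25.8 CPM in area 18. The 6 OSVZ libraries had a lowest value of 1.18, a median of 43.5 and a highest value of 69.6 CPM. All 4 CP libraries lay above all 10 germinal libraries, and the lowest CP value was 6.30 times the highest germinal one. Of the 1139 arms tested, 4.04% were separated in this way. The CP libraries held 89.4% of all its counts.

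miR-138-5p had the same separation at higher levels. Its CPM values in CP were 3352 and 1952 in area 17 and 6042 and 4789.8 in area 18. VZ had 303 and 219 CPM in area 17 and 573 and 208 CPM in area 18. The OSVZ libraries ran from 174 CPM, through a median of 374 CPM, to 479.7 CPM. Again no germinal library reached a CP library, with the lowest CP value 3.41 times the highest germinal one. In CP, miR-138-5p ranked 31 and miR-137-3p ranked 74 among the 1139 arms by mean CPM, and in the germinal zones they ranked 109 and 235.

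**Figure D1:**
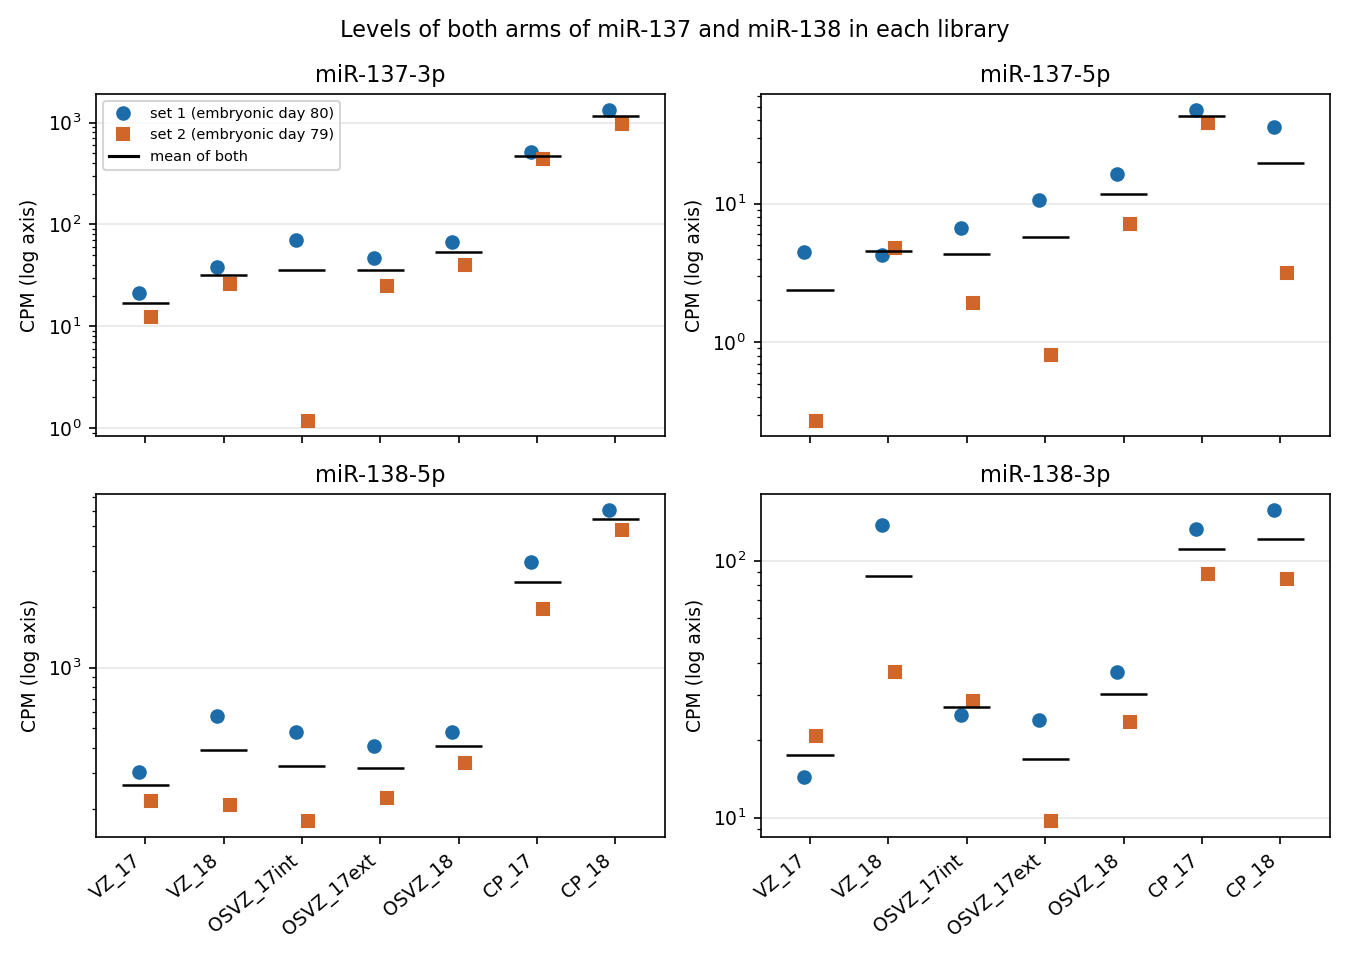
CPM on a log axis of the 4 arms in 7 regions, with circles for set 1 (embryonic day 80), squares for set 2 (day 79) and a line at the mean of both. The CP libraries of miR-137-3p (438 CPM and above) and miR-138-5p (1952 CPM and above) lie over every germinal library, and 1 OSVZ_17int library of miR-137-3p lies at 1.18 CPM.

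The order of the regions was alike for both major arms at its upper end. By mean, miR-137-3p was highest in CP_18 (1153 CPM), then CP_17 (474 CPM), OSVZ_18 (54.0 CPM), OSVZ_17ext (35.8 CPM), OSVZ_17int (35.4 CPM), VZ_18 (32.2 CPM) and VZ_17 (16.8 CPM). Its replicates did not overlap between CP_18 and CP_17, between CP_17 and OSVZ_18, or between VZ_18 and VZ_17, and the other neighbours overlapped. For miR-138-5p the order was CP_18 (5416 CPM), CP_17 (2652 CPM), OSVZ_18 (408 CPM), VZ_18 (390.2 CPM), OSVZ_17int (327 CPM), OSVZ_17ext (318 CPM) and VZ_17 (261 CPM). Its replicates did not overlap between CP_18 and CP_17 or between CP_17 and OSVZ_18, and each of the 5 germinal regions overlapped with the next. With 2 libraries per region, a lack of overlap is weak evidence of a difference, and its share over all arms was not counted.

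Comparing each germinal zone with CP sets tissue of dividing cells against tissue of young neurons, with no cell type isolated. In VZ, miR-137-3p was lower than in CP by 33.1-fold (log2 difference -5.05 ± 0.62, SE, adjusted p = 2.3e-07) and miR-138-5p by 12.3-fold (-3.63 ± 0.39, adjusted p = 2.23e-08). Means were 24.5 ± 10.9 CPM in VZ and 813 ± 423 CPM in CP for miR-137-3p (SD, n = 4 each), and 326 ± 170 and 4034 ± 1770 CPM for miR-138-5p. By p they were the 8th and the 4th of 1139 arms. In this comparison 7.37% of all arms were called at an adjusted p under 0.05, 4.74% as lower in VZ, and 2 of the 4 member arms were called, both lower.

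In OSVZ the major arms were lower than in CP by nearly as much. The log2 difference was -4.27 ± 0.56 for miR-137-3p (adjusted p = 1.09e-06), with 41.7 ± 26.2 CPM in OSVZ (n = 6). It was -3.42 ± 0.36 for miR-138-5p (adjusted p = 1.34e-08), with 351 ± 129 CPM in OSVZ. Here 3 of the 4 member arms were called, all lower, against 6.32% of all arms called and 4.21% called lower. Both comparisons share the 4 CP libraries. The median of all tested arms was itself -0.22 in VZ against CP and -0.20 in OSVZ against CP on the log2 scale.

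The difference from CP appeared in each area and each set taken alone. For miR-137-3p, VZ minus CP was -4.59 and -5.12 on the log2 scale in areas 17 and 18 of set 1 and -5.13 and -5.21 in set 2. For miR-138-5p it was -3.47 and -3.40 in set 1 and -3.15 and -4.53 in set 2. OSVZ minus CP ran from -6.29 to -3.15 for miR-137-3p and from -3.83 to -2.92 for miR-138-5p, all 4 values below 0 for each. Over sets, OSVZ against CP for miR-137-3p moved most, from -3.73 in set 1 to -5.44 in set 2, which holds the OSVZ_17int library with 8 counts. Without that library and VZ_18 replicate 1, the differences were -4.80 (VZ against CP) and -3.81 (OSVZ against CP) for miR-137-3p, and -3.64 and -3.17 for miR-138-5p, all called.

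The minor arms, which are usually degraded as the strand not loaded into Argonaute, followed with smaller or less certain differences. miR-138-3p stood at 133 and 88.8 CPM in CP_17, 157 and 84.4 CPM in CP_18, 14.4 and 20.7 CPM in VZ_17, and 137.2 and 36.7 CPM in VZ_18. Its OSVZ libraries ran from 9.69 CPM through a median of 24.5 CPM to 36.8 CPM, below all CP libraries, while VZ_18 replicate 1 lay within the CP range. The share of all arms with OSVZ below CP in this way was not counted. It was lower in OSVZ than in CP (-2.18 ± 0.53, adjusted p = 0.00639). In VZ against CP it was at -1.55 ± 0.57 without passing in edgeR (adjusted p = 0.104), while DESeq2 called it (adjusted p = 0.0378). Of the 1139 arms, DESeq2 called 161 in this comparison and edgeR 84. The call in OSVZ ended with library totals as the scaling (adjusted p = 0.0516) and without CP_17 replicate 1, OSVZ_18 replicate 1 or OSVZ_18 replicate 2 (adjusted p = 0.0592, 0.0833 and 0.115).

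miR-137-5p was the scarcest of the 4 arms. It had 47.9 and 38.5 CPM in CP_17 and 36.1 and 3.17 CPM in CP_18, and a median of 4.65 CPM over the germinal libraries, whose range of 0.271 to 16.4 CPM overlapped CP. It was at -3.09 ± 1.06 in VZ against CP (adjusted p = 0.0762) and at -1.97 ± 0.93 in OSVZ against CP (adjusted p = 0.292). VZ against CP was called for this arm with DESeq2 (adjusted p = 0.00449), with only arms of at least 10 CPM tested (0.044) and without VZ_17 replicate 1 (0.0455). In these settings 161, 89 and 120 of all arms were called, against 84 in the main fit.

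**Figure D2:**
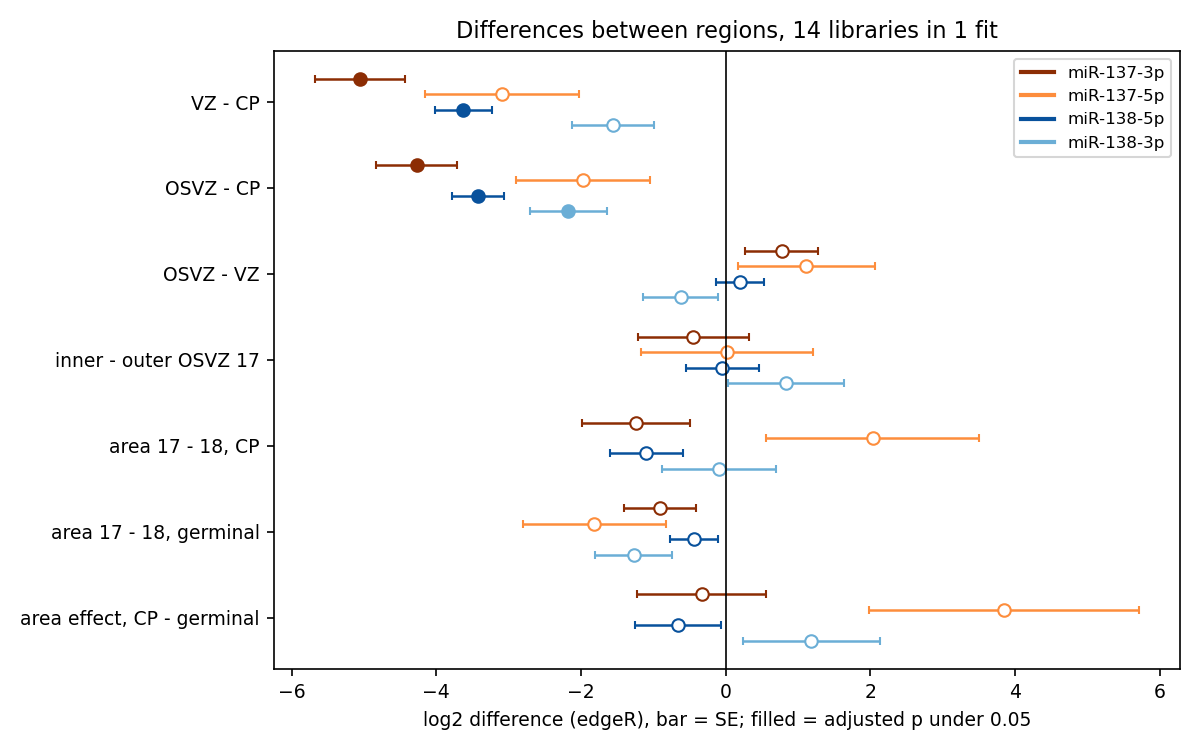
Log2 differences of the 4 arms in 7 comparisons from 1 edgeR fit of 14 libraries, with bars of 1 SE and filled points at an adjusted p under 0.05. The filled points are all in the comparisons with CP, from -5.05 for miR-137-3p to -2.18 for miR-138-3p.

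Between the germinal layers the arms differed by less than their error allowed to call. miR-137-3p was at 0.78 ± 0.50 in OSVZ against VZ (adjusted p = 0.543) and miR-138-5p at 0.20 ± 0.33 (adjusted p = 0.875). Of the 4 arms 0 were called by edgeR or by DESeq2 and 0 had an unadjusted p under 0.05, where 0.0878% of all arms were called. Within the OSVZ of area 17, inner against outer was -0.44 ± 0.77 for miR-137-3p (adjusted p = 0.958) and -0.042 ± 0.50 for miR-138-5p (adjusted p = 1), again with 0 of 4 arms called by edgeR or DESeq2 and 0 at an unadjusted p under 0.05 (0% of all arms called by edgeR, 46 at an unadjusted p under 0.05 and 2 called by DESeq2). The sublayer value of miR-137-3p rests on the library with 8 counts. It was -4.55 (adjusted p = 0.0322) without OSVZ_17int replicate 1, which leaves that library alone for the inner layer, and 0.47 (adjusted p = 1) without OSVZ_17int replicate 2.

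Areas 17 and 18 differ later in life in their number of neurons, and were compared in CP and in the germinal zones. Both major arms had lower values in CP_17 than in CP_18 in both sets. The difference was -1.23 ± 0.75 for miR-137-3p and -1.09 ± 0.50 for miR-138-5p, and neither passed (adjusted p = 0.994 for both). Unadjusted, p was 0.0373 for miR-138-5p, the 1 arm of the 4 under 0.05, and edgeR called 0% of all arms (36 of 1139 had an unadjusted p under 0.05, and DESeq2 called 3, none of them a member). The median of all arms was -0.21 in this comparison. The value of miR-137-3p was -0.70 without CP_17 replicate 1 and -1.82 without CP_17 replicate 2. miR-137-5p was on the other side of 0, at 2.04 ± 1.47 (adjusted p = 0.994), and was 0.87 without CP_17 replicate 2, 1.25 without CP_18 replicate 2, 2.99 without CP_17 replicate 1 and 3.06 without CP_18 replicate 1.

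In the germinal zones, area 17 against area 18 was -0.91 ± 0.49 for miR-137-3p (adjusted p = 0.647) and -0.44 ± 0.33 for miR-138-5p (adjusted p = 0.740), with 0% of all arms called by edgeR, 103 at an unadjusted p under 0.05 and 19 called by DESeq2. miR-138-3p had an unadjusted p of 0.0217 at -1.27 ± 0.53 (adjusted p = 0.462). Taking VZ, OSVZ and CP of each set separately, miR-137-3p was lower in area 17 in 6 of 6 pairings, from -2.85 to -0.25 on the log2 scale, and miR-138-5p in 5 of 6, from -1.29 to 0.078. The 3p arm of miR-138 was lower in 5 of 6 pairings (-3.24 to 0.074) and the 5p arm of miR-137 in 3 of 6 (-3.85 to 3.57). Over all 1139 arms, 3.42% were below 0 in 6 of 6 pairings and 17.5% in at least 5, and the median of all arms was -0.22 in the germinal comparison. Without OSVZ_17int replicate 1, which leaves the library with 8 counts alone for the inner OSVZ, the germinal difference of miR-137-3p became -1.91 (adjusted p = 0.018). Without OSVZ_17int replicate 2 it was -0.64 (adjusted p = 0.700), and without that library and VZ_18 replicate 1 it was -0.57 (adjusted p = 0.860). The germinal difference of miR-138-5p was -0.18 without VZ_18 replicate 1 and -0.054 without both. The area difference in CP minus that in the germinal zones was -0.33 ± 0.89 for miR-137-3p and -0.66 ± 0.60 for miR-138-5p (adjusted p = 1 for both, 0% of all arms called by edgeR, 40 at an unadjusted p under 0.05 and 0 called by DESeq2). For miR-137-5p it was 3.85 ± 1.86, with an unadjusted p of 0.0462 and an adjusted p of 1.

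The ratio of the major arms within a library does not depend on how libraries are scaled. Counts of short RNAs also carry the ligation preference of each sequence, so the ratio is one of counts and not of molecules. In CP, miR-138-5p had 4.46 to 6.58 times the counts of miR-137-3p, and in the germinal zones 6.88 to 138.4 times. On the log2 scale the ratio of miR-137-3p to miR-138-5p was -2.34 ± 0.26 in CP (SD, n = 4) and -3.70 ± 1.29 in the germinal zones (n = 10). All CP libraries (-2.72 to -2.16) were above all germinal ones (-7.11 to -2.78). The difference of means was 1.36, and an exact permutation test within sets gave p = 0.0522 (two-sided, 441 assignments, smallest possible p 0.00227, Benjamini-Hochberg adjusted p = 0.0782 over 3 such tests). With single libraries left out, the difference ran from 0.98 to 1.48 (exact p 0.0127 to 0.143, not adjusted). The value of 0.98 (exact p = 0.0127) was without OSVZ_17int replicate 2, the library at 138.4 times.

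The share of the minor arm also varied. miR-138-3p made up 1.73% to 4.35% of the miR-138 counts in CP, with a mean of 3.11% ± 1.19 (SD, n = 4), and 4.11% to 19.3% in the germinal zones, with a mean of 8.99% ± 5.28 (n = 10). The ranges overlapped through 1 germinal library, OSVZ_17ext replicate 2. The highest share was in VZ_18, with 19.3% in replicate 1 (exact 95% interval 18.4% to 20.2%, 7621 counts) and 15.0% in replicate 2 (13.4% to 16.8%, 1683 counts). The difference of -5.88 percentage points had an exact permutation p of 0.0454, and 0.0782 after adjustment, and so did not pass.

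For miR-137, the share of the 5p arm was 4.90% ± 4.07 in CP (n = 4) and 17.2% ± 16.9 in the germinal zones (n = 10), and these ranges overlapped (exact permutation p = 0.211, adjusted 0.211). The difference of -12.3 percentage points ran from -14.0 to -7.36 with single libraries left out (exact p 0.0508 to 0.365), the smallest being without OSVZ_17int replicate 2. Within CP it was 8.59% and 8.07% in area 17 and 2.62% and 0.329% in area 18. In OSVZ_17int replicate 2, the 5p arm had 13 of 21 counts (61.9%, exact 95% interval 38.4% to 81.9%). The intervals cover counting error only, since amplified reads are not independent molecules.

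**Figure D3:**
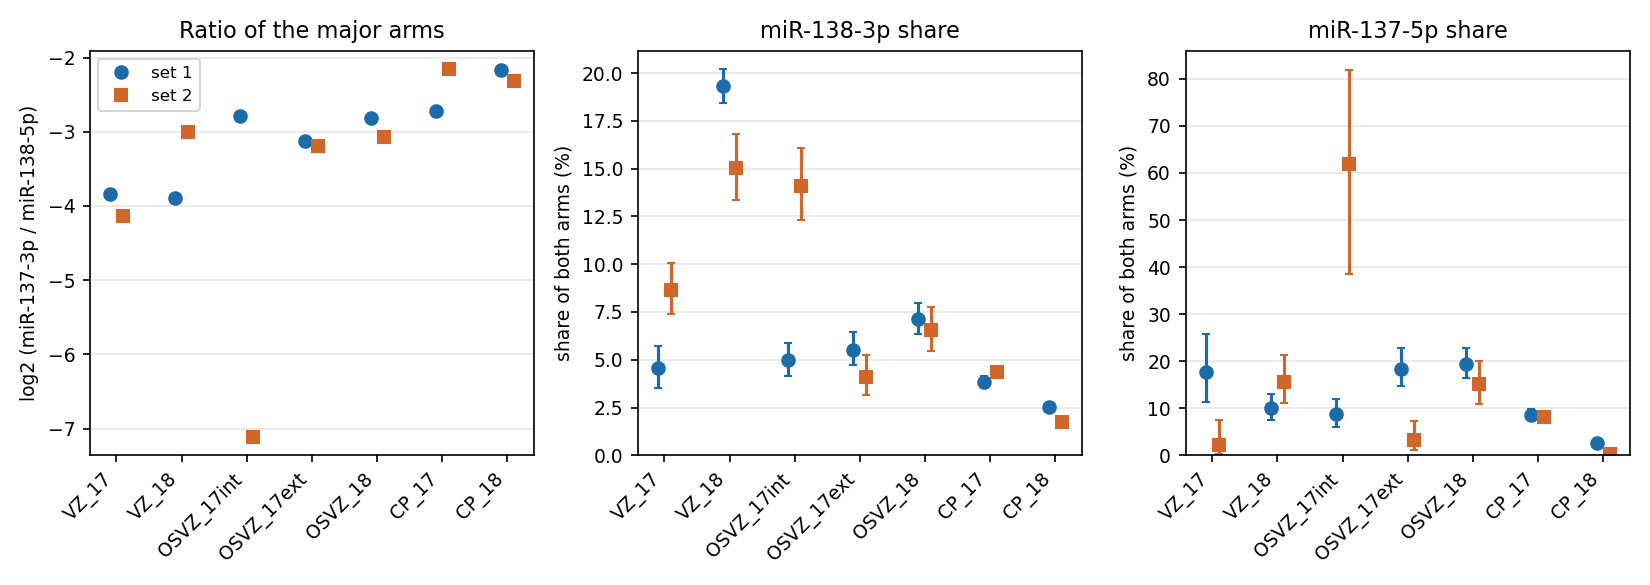
By library and region, the log2 ratio of miR-137-3p to miR-138-5p counts (left) and the share of the minor arm in percent of both arms for miR-138 (middle) and miR-137 (right), with circles for set 1, squares for set 2 and exact 95% counting intervals as bars. The ratio is between -2.72 and -2.16 in CP and lower in all germinal libraries, and OSVZ_17int replicate 2 lies at -7.11.

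The arms most like each major arm were sought among the 379 arms that averaged 10 CPM or more, by Pearson's r of log2 CPM over 14 libraries, taken as deviations from the mean of the set. These libraries fall into CP and germinal clusters far apart, and share depth and scaling, so r within the 10 germinal libraries is given beside it. For miR-137-3p the germinal r includes OSVZ_17int replicate 2, at 0.33 on the log2 CPM scale. The other germinal libraries had 3.65 to 6.12, and r without that library was not computed. Most like miR-137-3p was miR-138-5p (r = 0.93, germinal r = 0.67), followed by miR-218-5p (0.92, germinal 0.54), miR-329-3p (0.90, germinal 0.76), miR-132-5p (0.89, germinal 0.34) and miR-487b-3p (0.88, germinal 0.23). Most like miR-138-5p were miR-598-3p (0.96, germinal 0.13), miR-132-5p (0.96, germinal 0.47), miR-7-3p (0.95, germinal 0.51), miR-487b-3p (0.94, germinal -0.017) and miR-218-5p (0.93, germinal 0.20), with miR-137-3p in place 6. Between the arms of one hairpin, r was 0.64 for miR-137-3p and miR-137-5p (germinal 0.29) and 0.79 for miR-138-5p and miR-138-3p (germinal 0.44).

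Other miRNAs with known roles in dendrites or synapses, mostly from rodent neurons, were read from a list of 24 names, of which 22 were in the tables, with 40 arms tested. In VZ against CP, 3 arms were lower, 1 was higher and 36 were not called, with a median of -0.54 beside -0.22 over all arms, of which 7.37% were called and 4.74% lower. The lower ones were both arms of the activity-induced miR-132, which promotes dendrite growth through p250GAP in rodent neurons (miR-132-5p at -3.14 ± 0.53, with 27.2 CPM in VZ against 225 CPM in CP, and miR-132-3p at -1.89 ± 0.42), and miR-218-5p, which acts on glutamate receptors in rodent hippocampus (-1.70 ± 0.37). The higher one was miR-29a-3p, which acts on spines through the actin regulator Arpc3 in mouse (2.46 ± 0.42). Next by p came miR-29b-5p at 1.52 ± 0.49 and miR-29b-3p at 2.56 ± 0.87, which did not pass (adjusted p = 0.0557 and 0.0744). In OSVZ against CP the counts were again 3 lower, 1 higher and 36 not called (median -0.36, all arms -0.20, of which 6.32% were called and 4.21% lower).

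**Figure D4:**
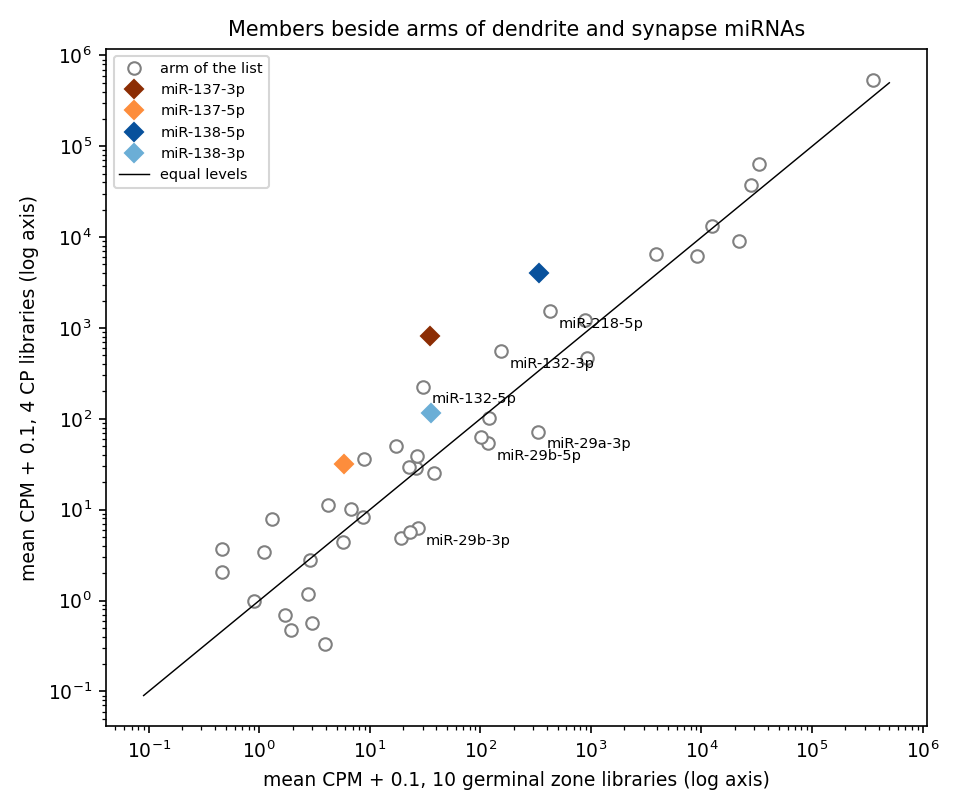
Mean CPM (with 0.1 added, log axes) in 10 germinal libraries against 4 CP libraries for 40 arms of dendrite and synapse miRNAs (open circles) and the 4 arms of miR-137 and miR-138 (diamonds), with a line at equal levels. The diamonds lie above the line, at 813 against 34.8 CPM for miR-137-3p and 4034 against 341 CPM for miR-138-5p.

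Sums over lists of miRNAs named for these and other cell types are given beside these differences. The list names were not checked in this tissue, and a sum does not show that the cell type was present. The 3 tested neuron arms (miR-124 and miR-129) summed to 1218 to 2978 CPM in CP. Their sum was 418 to 1337 CPM in VZ and 271 to 549 CPM in OSVZ, with 1 of 3 called lower in VZ and 2 of 3 in OSVZ. In this sum VZ_17 replicate 2 lay above CP_17 replicate 1. At most 2.99 CPM of it came from miR-124-3p, so it was almost wholly miR-129. miR-128, also on the neuron list, had no tested arm. The 2 progenitor arms (miR-92b) were both called higher in each germinal zone. The summed level of 3 arms listed for choroid plexus (miR-204 and miR-211) was 4947 to 7253 CPM in CP. It was 209 to 1952 CPM in VZ and 166 to 957 CPM in OSVZ, with 1 of 3 called lower in each germinal zone. With its highest values in the cortical plate, this sum is not read as choroid plexus. The 4 oligodendrocyte arms (miR-219 and miR-338) summed to 398 to 766 CPM in CP, against 115 to 318 CPM in VZ and 97.5 to 158 CPM in OSVZ, with 2 of 4 called lower in each zone and 1 called higher in VZ. The 10 myeloid and lymphoid arms went the other way, at 464 to 525 CPM in CP, against 861 to 1059 CPM in VZ and 737 to 1283 CPM in OSVZ, with 2 of 10 called higher in VZ and 1 of 10 in OSVZ. The 7 mural and mesenchymal arms summed to 675 to 1083 CPM in CP, against 923 to 1947 CPM in VZ and 1410 to 4911 CPM in OSVZ, with 1 of 7 called higher in VZ and 2 of 7 in OSVZ. The 2 endothelial and 4 erythroid arms had 0 calls by edgeR. VZ_18 replicate 1 had the highest erythroid sum, at 327 CPM, where all OSVZ and CP libraries had 126 CPM or less. No tested arm of these lists was at 0 in every library, and their part in the results for miR-137 and miR-138 was not tested.

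Between the sets, the values depended on the scaling for all arms together. Under TMM, miR-137-3p and miR-138-5p were both higher in set 1 than in set 2 in 7 of 7 regions, as were 5.79% of all arms, by medians of 0.76 and 0.78 on the log2 scale beside 0.0098 over all arms. With library totals the median of all arms was -0.84, and the major arms, with medians of -0.061 and -0.12, were higher in set 1 in 3 and 2 of 7 regions and lay above that shift. Embryonic day and set cannot be told apart.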

How the data were processed

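Small RNA of 7 laser-cut regions was sequenced on the SOLiD platform after miRNA size selection, per the labels' protocols. The authors deposited raw read counts per miRNA name and arm. The aligner, genome build and miRNA annotation are not given in the sources used here. Region spellings and the presence of VZ_18 tied the columns of 2 tables to sets 1 and 2, which gave 14 libraries. Another 12 value columns carry names found in no label and stayed out, and 6 samples with labels are not analysed here. Values of 828 shared names were joined.

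Arms were filtered with filterByExpr (1139 of 1656 kept, 99.99% of counts) and TMM-scaled. They were tested by quasi-likelihood in edgeR 4.0.16 under R 4.3.3, on 7 region means plus a block for the set. The fit left 6 residual degrees of freedom per arm, to which a median of 28.1 prior ones were added from the spread of all arms. The p-values of an arm thus rest mostly on spread shared across arms. Adjustment was by Benjamini-Hochberg over 1139 arms, and arms were called under 0.05. VZ and CP are means of both areas, and OSVZ gives equal weight to both areas, with the area 17 sublayers averaged first. SE is the log2 difference over the root of F. The design had been written for every mappable library. The block was used because the labels give each set its own embryonic day. Deviations from region means correlated within sets with a median r of 0.25 (0.015 to 0.51, 19 of 21 pairs of regions above 0.1). Alternatives were DESeq2 1.42.0, other scalings, filters, no block and libraries left out. The fit was run on simulated data with less spread than the median biological CV of 114% here, and with no effect of the set. That run therefore does not give the error rates for these libraries. The ratio had 0.5 counts added to each arm. The members and lists were chosen with earlier results of these data known. Named arms are all arms of both miRNAs, the 5 arms most like each major arm and the 6 list arms with the smallest p in VZ against CP, with miR-92b-3p and miR-124-3p as checks.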

Additional observations from a re-analysis of the deposited data

Results flagged for a closer look

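Within VZ, OSVZ and CP, 1 library lay far from the rest of its zone by Dixon's criterion in 7 cases among 21 groups of libraries examined. Chance flags about 5% of groups where these are independent and their libraries alike. Here the groups mix regions and reuse the same libraries and counts, so the 7 cases cannot be set against that share. Of the 7 cases, 4 were OSVZ_17int replicate 2, with miR-137-3p at 0.33 on the log2 CPM scale, a log2 ratio of miR-137-3p to miR-138-5p of -7.11, a miR-138-3p share of 14.1% and a miR-137-5p share of 61.9%. That library held 8 counts of miR-137-3p, 13 of miR-137-5p, 1176 of miR-138-5p and 193 of miR-138-3p. For miR-137-5p, VZ_17 replicate 2 was low in VZ, at -1.56 on the log2 CPM scale (2 counts), and CP_18 replicate 2 was low in CP, at 1.69 (25 counts). For miR-138-3p, OSVZ_17ext replicate 2 was low in OSVZ, at 3.29 (60 counts). All 4 libraries were in set 2.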

How the results depend on the processing

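The lower levels of miR-137-3p and miR-138-5p in VZ and OSVZ than in CP kept their direction and their call in every alternative run with a test, the fit with no replicate block included (-4.99, -3.57, -4.08 and -3.39). Leaving out 1 library at a time gave -5.24 to -4.72 and -3.76 to -3.46 in VZ, and -5.13 to -3.91 and -3.56 to -3.27 in OSVZ. With set 2 alone, OSVZ against CP was -5.44 for miR-137-3p.

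Counts of all arms called moved more, and the cause was not tested. Against 84 in VZ against CP and 72 in OSVZ against CP, DESeq2 gave 161 and 112, single libraries left out gave 53 to 120 and 44 to 100, the fit with no replicate block gave 53 in VZ, and leaving out VZ_18 replicate 1 and VZ_17 replicate 2 together gave 125 in OSVZ. The calls in VZ, 30 higher and 54 lower, became 37 and 32 when scaled by library totals. Those in OSVZ, 24 and 48, became 38 and 34, and 35 and 44 with DESeq2 size factors. OSVZ against VZ had 1 call, with 0 under DESeq2 size factors, library totals or no replicate block, 0 without VZ_18 of set 1 and OSVZ_17int of set 2 (an alternative chosen after seeing the data), 11 by the DESeq2 test, 3 where only arms averaging 10 CPM were kept, 2 without those VZ libraries and 0 to 24 with single libraries left out. From 0 calls, DESeq2 gave 2 between OSVZ sublayers, 3 between areas in CP and 19 in the germinal zones. No filter gave 3 in CP, 9 in the germinal zones and 1 for the difference between these. Library totals gave 2 in the germinal zones. The fit without those VZ libraries gave 6 between sublayers, 3 in CP, 1 in the germinal zones and 2 for their difference, and the later alternative gave 1 in the germinal zones. Single libraries left out gave 0 to 1, 0 to 3, 0 to 30 and 0 to 13, the highest in the last 2, as for VZ or OSVZ against CP and OSVZ against VZ, without VZ_17 replicate 1.

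Differences that were not called also changed sign. OSVZ against VZ became -0.27 for miR-137-3p in set 2 alone (-0.13 to 0.99 with single libraries left out) and -0.087 for miR-138-5p with library totals, a scaling that moved the median of all arms from 0.12 to -0.12. Inner against outer OSVZ became 0.57 for miR-137-3p in set 1 alone and 0.51 in the later alternative (-4.55 to 0.47 with single libraries left out). For miR-138-5p it became 0.039 with no replicate block, 0.11 with arms of at least 10 CPM, 0.16 in the later alternative and 0.23 in set 1 alone (-0.47 to 0.047 with single libraries left out). The area difference of miR-138-3p in CP became 0.019 with no filter and 0.074 in set 2 alone (-0.22 to 0.061 with single libraries left out). The area difference in CP minus that in germinal zones became 0.81 for miR-137-3p in set 2 alone (-0.89 to 0.79). The ratio difference of 1.36 was 1.35 with 1 count added to each arm (exact p = 0.0499), 0.91 in the later alternative (exact p = 0.00889) and 0.98 to 1.48 with single libraries left out (exact p 0.0127 to 0.143). The miR-138-3p share difference was -6.42 to -4.73 percentage points with single libraries left out (exact p 0.0286 to 0.111). The lowest germinal counts were 8 for miR-137-3p and 2 for miR-137-5p, in libraries of 4469156 and 5078172 counts. The shallowest library, OSVZ_18 replicate 2 with 3603478 counts, held 214 and 38, and the part of depth was not tested.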
